A study of Mus musculus with 16 samples.

Results

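The data describe what MeOH eluate did to gene expression in differentiating mouse embryonic stem cells (mESCs) within 6 h. MeOH eluate is the fraction that methanol eluted from the hawthorn (Crataegus) extract WS1442, a mixture that holds flavonoids and oligomeric procyanidins. The comparison was made between 3 cultures given 0.1 mg/ml MeOH eluate and 2 cultures given the vehicle DMSO, which are 5 of the 16 samples in the series, chosen by their labels. All cells were of the CGR8-Myh6-GFP line, which carries green fluorescent protein under the promoter of the cardiac myosin gene Myh6, and all were treated on day 4 of differentiation in serum medium without leukaemia inhibitory factor. Reference is also made to 3 cultures with 0.25 mg/ml WS1442 for 6 h, which were compared with the same 2 DMSO cultures, and to the cultures with DMSO (n = 2) and MeOH eluate (n = 3) at 24 h. The labels call the samples replicates of 1 line without saying that they came from separate differentiations, so the p-values measure the spread between these samples.

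At this stage of differentiation mESCs pass through a state that resembles the primitive streak of the embryo, in which Nodal, Wnt, BMP and FGF signals turn on transcription factors such as T, Eomes, Mixl1 and Gsc. Nodal works through the coreceptor Tdgf1 and the factors Smad2, Smad3 and Foxh1, and it induces its own inhibitors Lefty1 and Lefty2. Mesoderm that leaves the streak later expresses other factors, among them Foxc1, Foxc2, Foxf1 and Twist1, and the heart arises from part of it.

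Each value below is a level, the log2 of an array signal after quantile normalization in arbitrary units, or a log2 (fold change), the difference of 2 mean levels. Levels of different genes cannot be set against each other because each probe has its own brightness. A gene is said to have risen or fallen only where the Benjamini-Hochberg adjusted p of limma's moderated test over all 29229 genes was under 0.05. Pearson correlations between arrays were 0.995 within DMSO, 0.992 to 0.993 within MeOH eluate and 0.984 to 0.991 between these groups. The RNA integrity number was 10 in both DMSO cultures and 10, 9.9 and 9.6 in the MeOH cultures, and 60.8 to 62.8% of spots with DMSO against 57.3 to 60.8% with MeOH eluate were well above background. The part of these differences in the results was not tested. RNA came from whole cultures, in which fewer cells of a type and less RNA per cell cannot be told apart.

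With MeOH eluate 2533 genes rose and 2449 genes fell after 6 h, together 17% of the genes tested. Most of these changes were small, since 3481 of the 4982 genes changed by less than 1.5-fold, 1076 by 1.5-fold to 2-fold and 425 by more than 2-fold. The 425 genes, 1.45% of those tested, comprised 221 that rose (0.756%) and 204 that fell (0.698%), and 34 of them exceeded 4-fold. At an unadjusted p under 0.05, 615 genes (2.1%) passed 2-fold. Both groups were well above background on every array in 253 of the 425 genes, while 42 rises started from DMSO arrays below background and 59 falls ended on MeOH arrays below background. The median log2 (fold change) of all genes was -0.0004. Without DMSO replicate 2 the 2-fold calls were 325 rises and 162 falls (66.7% rises, against 52.0%). Without DMSO replicate 1 the counts dropped to 261 genes past 2-fold and 1976 at any fold, and without MeOH replicate 3 the latter was 3199. After normexp background correction with a chosen offset of 50 added to each linear signal, 68 genes passed 2-fold. The parts of the correction and of the offset in this lower count were not tested.

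**Figure D1:**
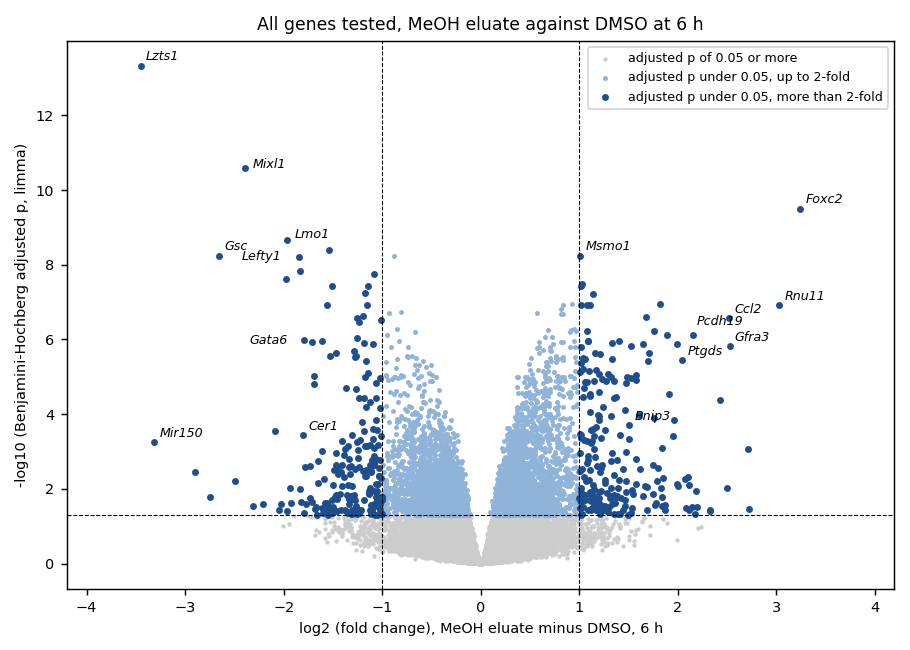
Each point is a gene, with the log2 (fold change) of MeOH eluate against DMSO at 6 h on the x axis and -log10 of limma's adjusted p on the y axis. Dashed lines mark 2-fold and an adjusted p of 0.05; 221 dark points lie to the right and 204 to the left, with Lzts1, Mixl1 and Gsc farthest out among well measured falls and Foxc2 among rises.

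The largest fall was that of Lzts1, which encodes a leucine zipper protein known as a putative tumor suppressor. Its level was 11.02 and 11.08 in the DMSO cultures and 7.57, 7.62 and 7.60 in the MeOH cultures, a log2 (fold change) of -3.45 ± 0.06 (SE) and a 10.9-fold difference (adjusted p = 4.69e-14). All MeOH cultures lay far below both DMSO cultures, but absence of overlap was a condition for choosing the 30 genes with the largest changes. Groups without overlap, in either direction, were found for 50.2% of all genes, the share to set beside each gene below without overlap. All 3 kept probes of Lzts1 were lower with MeOH eluate, but the changes ranged from -3.45 to -0.49 and 2 of the 3 passed the threshold. Mir150, the gene of a microRNA that restrains Myb in lymphocytes, read 8.16 and 6.75 with DMSO and 4.47, 4.67 and 3.29 with MeOH eluate (log2 (fold change) -3.31 ± 0.52, adjusted p = 0.000557). The DMSO cultures differed from each other by more than 1 log2 unit for Mir150, and the probe does not separate its precursor from its mature arms.

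The largest rise was that of Foxc2, a forkhead factor of paraxial mesoderm, vessels and the cardiac outflow tract. It read 5.78 and 5.76 with DMSO and 9.0, 9.08 and 8.94 with MeOH eluate, a log2 (fold change) of 3.24 ± 0.11 and a 9.45-fold rise (adjusted p = 3.17e-10). Rnu11, an RNA of the minor spliceosome, read 7.14 and 7.16 with DMSO and 10.51, 10.26 and 9.78 with MeOH eluate (3.03 ± 0.19, adjusted p = 1.2e-07), and the labels leave undecided whether oligo-dT or a mixture with random primers started the labelling of such RNAs without a tail. Gfra3, a coreceptor of the GDNF family ligand artemin, rose from 3.94 and 4.37 to 6.63, 6.87 and 6.55 (2.53 ± 0.20), and Ccl2, a chemokine that attracts monocytes, from 5.27 and 5.35 to 7.55, 7.87 and 8.08 (2.52 ± 0.17). The protocadherin gene Pcdh19 rose 4.44-fold (5.28 and 5.52 against 7.46, 7.44 and 7.77) and Ptgds, a prostaglandin D2 synthase, 4.13-fold (6.28 and 6.46 against 8.21, 8.60 and 8.45). In each of these genes every MeOH culture exceeded both DMSO cultures by more than 1 log2 unit. The choice of these genes already required groups without overlap.

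Among the largest rises, Samt3, Rag1, Olfr1318, Rnf207, Scnn1b, Prss46 and Taar2 were of another kind: their adjusted p lay between 0.0113 and 0.0392, and the 3 WS1442 cultures spanned more than 2 log2 units for each. In all 7 WS1442 replicate 1 was more than 2 log2 units above WS1442 replicate 2. Samt3, for example, read 2.90 and 2.94 with DMSO, 5.6, 5.76 and 5.58 with MeOH eluate and 5.87, 1.57 and 5.49 with WS1442. Rag1, the recombinase gene of lymphocytes, read 2.75 and 1.47, then 4.62, 4.39 and 4.30, and 4.5, 1.5 and 4.45 in the same order. Where no DMSO array was well above background the fold is a bound against the lowest signal above background: at least 5.22-fold for Samt3, 2.65-fold for Olfr1318, 2.26-fold for Rag1, 1.89-fold for Stac (which encodes an adaptor of voltage-gated calcium channels) and 1.81-fold for Rnf207. Likewise Olfr1062, Ccr8 and Ifit3 fell at least 2.30-fold, 2.11-fold and 1.19-fold. The probes named Olfr1062 and Olfr1318 each match 2 gene symbols. The 2 kept probes of Taar2 read 2.20 and 0.15, and 1 of them passed the threshold.

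**Figure D2:**
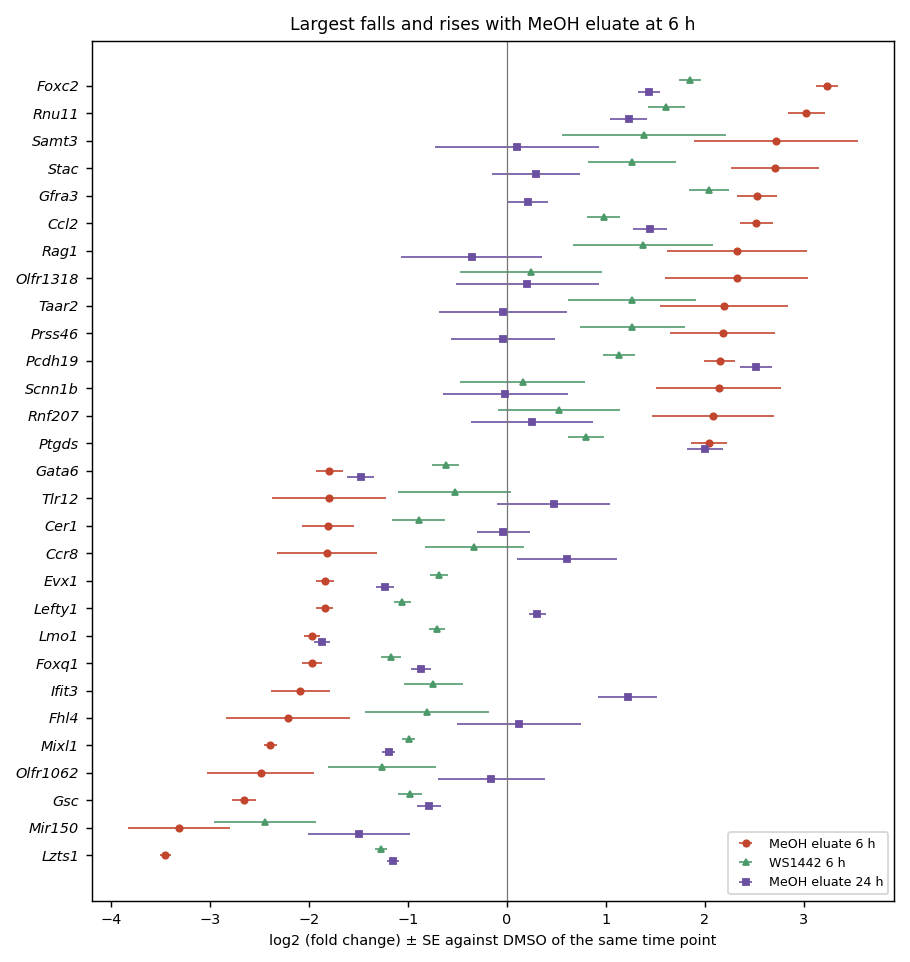
The x axis gives the log2 (fold change) ± SE against DMSO of the same time point for 29 of the 30 largest falls and rises with MeOH eluate at 6 h (circles), with WS1442 at 6 h (triangles, same DMSO cultures) and with MeOH eluate at 24 h (squares). Fitted values are drawn also for the 8 genes of which only a bound of the fold can be given, and wide bars belong to dim genes such as Samt3.

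Genes of the primitive streak and early mesoderm moved in both directions. Of 25 measured genes of the streak and early mesoderm, 11 fell and 6 rose, which is 68% against 17% of all genes and 37.7% of the 993 genes of any list examined. The lists hold named genes. The share was 20.8% of all genes with a symbol and 21.7% of those well above background on all 5 arrays. These shares stand beside each list below. The median log2 (fold change) of the 25 streak genes was -0.14. It was -0.25 without MeOH replicate 2, -0.09 without DMSO replicate 2 and -0.04 without MeOH replicate 3. The 11 that fell were Gsc, Mixl1, Evx1, Cdx2, T, Lhx1, Eomes, Wnt3, Sp5, Fgf8 and Msgn1, and the 6 that rose were Foxc2, Foxc1, Foxf1, Twist1, Hand1 and Mesp2.

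Mixl1, a homeobox factor that directs streak cells toward endoderm and mesoderm, read 10.97 and 10.88 with DMSO and 8.57, 8.58 and 8.45 with MeOH eluate (-2.39 ± 0.07, a 5.25-fold fall, adjusted p = 2.53e-11). Gsc, the goosecoid factor of the anterior streak and the organizer, read 11.84 and 12.07 against 9.23, 9.39 and 9.26 (-2.66 ± 0.12, 6.32-fold, adjusted p = 5.71e-09). Evx1, a factor of the posterior streak, read 10.48 and 10.43 against 8.77, 8.70 and 8.38 (-1.84 ± 0.09). The spread within each group was below 0.4 log2 units for these genes, and the groups lay more than 1.5 log2 units apart.

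The T gene, which encodes brachyury, the factor that marks nascent mesoderm, read 7.93 and 7.91 with DMSO and 6.66, 6.71 and 6.53 with MeOH eluate (-1.28 ± 0.11, adjusted p = 2.06e-06). Lhx1, a factor of axial mesoderm, fell 2.31-fold and Cdx2, a factor of posterior mesoderm and trophoblast, 3.33-fold, although only 1 of the 3 MeOH arrays measured Cdx2 above background. Eomes, needed for endoderm and cardiac mesoderm, fell 1.87-fold from 8.93 and 8.83 to 7.88, 8.04 and 8.01. The ligand gene Wnt3, which starts streak formation in the embryo, fell 1.84-fold from 13.14 and 13.13 to 12.20, 12.28 and 12.29, with an SE of 0.04 log2 units. Mesp1, the factor at the root of the cardiac lineage, did not pass the test, with 7.66 and 8.00 against 7.91, 8.16 and 7.84 (0.14 ± 0.14, adjusted p = 0.553), and its groups overlapped.

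Among the genes that rose, Foxc1, which acts together with Foxc2 in somites and vessels, read 6.78 and 7.46 with DMSO and 8.59, 8.75 and 8.76 with MeOH eluate (1.58 ± 0.16, adjusted p = 1.2e-05). Foxf1, a factor of lateral plate and splanchnic mesoderm, read 6.23 and 5.94 against 7.30, 7.43 and 7.39 (1.29 ± 0.12). Twist1, a mesenchymal factor, read 7.06 and 7.08 against 7.92, 8.08 and 7.93 (0.91 ± 0.09). No culture of either group overlapped the other group in these 3 genes, which held in either direction for 50.2% of all genes. Over 35 forkhead genes 7 rose and 7 fell, but 6 and 4 without MeOH replicate 3. This is 40%, against 17% of all genes and 37.7% of the genes of any list. The median was -0.04, and it was -0.06 without DMSO replicate 1 and -0.13 without DMSO replicate 2. Of those past 2-fold, Foxq1, a factor of epithelia, fell from 8.77 and 8.84 to 6.69, 6.95 and 6.85 (-1.97 ± 0.10), Foxd1 rose at least 1.44-fold from DMSO arrays below background, and Foxs1 was not well above background in either group.

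**Figure D3:**
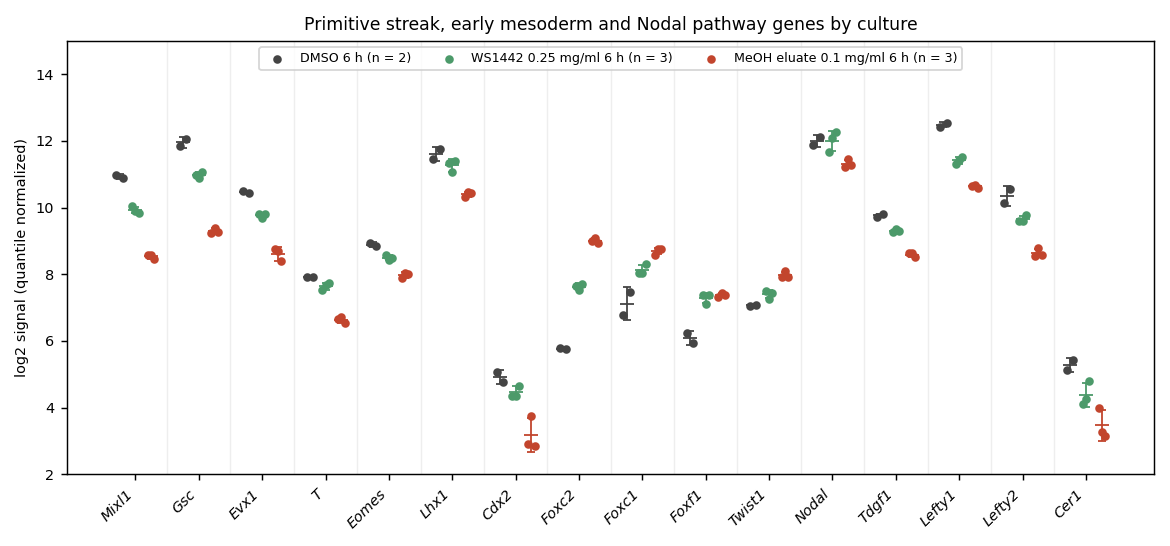
Points are single cultures and bars the mean ± SD of the log2 signal for 16 genes with DMSO (n = 2), WS1442 (n = 3) and MeOH eluate (n = 3) at 6 h. Mixl1, Gsc, Evx1, T, Lefty1 and Lefty2 are lowest with MeOH eluate and Foxc2 highest, with the WS1442 cultures between both other groups, whereas WS1442 and MeOH cultures overlap for Foxf1.

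Genes of the Nodal pathway fell more often than they rose. Of 19 measured members 8 fell and 4 rose (63.2%, against 17% of all genes and 37.7% of the genes of any list). The median log2 (fold change) was -0.20. Lefty1, an inhibitor of Nodal, read 12.42 and 12.53 with DMSO and 10.65, 10.66 and 10.58 with MeOH eluate (-1.84 ± 0.09, adjusted p = 6.09e-09), and Lefty2 10.12 and 10.56 against 8.55, 8.78 and 8.56 (-1.71 ± 0.13). Cer1, a secreted inhibitor of Nodal, BMP and Wnt, read 5.13 and 5.43 against 4.00, 3.27 and 3.14, with 1 of 3 MeOH arrays above background. The ligand Nodal fell less, from 11.87 and 12.12 to 11.21, 11.45 and 11.28 (-0.68 ± 0.13, adjusted p = 0.0028), and the related ligand Gdf3 fell by 0.48 log2 units. The coreceptor Tdgf1 read 9.72 and 9.80 against 8.63, 8.63 and 8.5 (-1.17 ± 0.07).

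Downstream in the pathway, the feedback inhibitor Smad7 fell by 0.58 log2 units. The members that rose were the signal transducers Smad3 (0.54) and Smad4 (0.21), the receptor Acvr2b (0.36) and the proprotein convertase Pcsk6 (0.29), of which 2 passed without DMSO replicate 1. The promoter of Tdgf1 holds 2 matches of AATNNACA, a form of the site bound by Foxh1, and it was the only one among 6 promoters of called pathway members with a match, whereas 11% of all tested genes with a promoter had one. The stretch is shown because both matches lie in it (GRCm38.p6, chr9:110946227-110946310, minus strand, matches in capitals):
Tdgf1: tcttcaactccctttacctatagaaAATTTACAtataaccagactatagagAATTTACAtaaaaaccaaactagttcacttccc

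Several further signals of the streak stage fell. Of 34 Wnt ligands and targets 13 fell and 1 rose (41.2%, against 17% of all genes and 37.7% of the genes of any list). Without MeOH replicate 1 there were 10 falls. The median was -0.24, and it was -0.17 without DMSO replicate 1. The largest fall was that of Wnt5b, a ligand of the branch without beta-catenin, with 10.30 and 10.36 against 9.11, 9.15 and 9.26 (-1.16 ± 0.07, adjusted p = 1.2e-07). Wnt5a (-0.94), the Wnt inhibitor Dkk1 (-0.89) and the cyclin gene Ccnd1 (-0.74) fell too, and Lef1, a transcription factor of the pathway, rose by 0.55, though not without DMSO replicate 2. Of 17 feedback genes and targets of FGF and ERK signaling 7 fell and 2 rose (52.9%, against the same 17% and 37.7%). Dusp6, a phosphatase of ERK, fell from 11.27 and 11.26 to 10.06, 10.16 and 10.13 (-1.15 ± 0.06). The ETS factor genes Etv5 (-0.85), Etv4 (-0.52) and Etv1 (-0.93) and the inhibitor Spry4 (-0.75) also fell. Every MeOH culture lay below both DMSO cultures for Dusp6 and Wnt5b, as for 24.6% of all genes.

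Ligands of these families did not move together. Fgf10 fell 2.40-fold (10.60 and 10.74 against 9.30, 9.39 and 9.54), Fgf8 1.49-fold, and Fgf15 rose 2.52-fold (5.39 and 5.53 against 6.82, 6.91 and 6.67). Bmp4, the main BMP of the streak, fell from 11.05 and 10.88 to 10.10, 10.22 and 10.26 (-0.78 ± 0.09), and the BMP-responsive factors Msx1 and Tbx2 fell 2.90-fold and 2.58-fold, while Id2 (0.89) and Bmp7 (0.60) rose. The 24 genes of the BMP list had 5 falls and 4 rises (37.5%, against 17% of all genes and 37.7% of the genes of any list). Without MeOH replicate 1, 2 or 3 there were 3 rises. Hes5, a Notch target, fell 2.27-fold from 13.13 and 13.35 to 12.04, 12.18 and 11.95, and the retinoic acid hydroxylase gene Cyp26a1 fell 2.41-fold from 9.69 and 9.94 to 8.49, 8.63 and 8.51. Lfng (0.97), a modifier of Notch receptors, and Meis2 (1.03), a homeobox factor, rose.

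Some pluripotency factors fell. Of 26 measured, 9 fell and none rose at adjusted p under 0.05, with a median of -0.28. This is 34.6%, against 17% of all genes and 37.7% of the genes of any list in either direction. Of all genes 8.38% fell. Otx2, a factor of the primed state and the anterior epiblast, read 9.12 and 9.29 with DMSO and 7.87, 8.05 and 7.89 with MeOH eluate (-1.26 ± 0.14, adjusted p = 2.14e-05), and Nanog 6.17 and 6.40 against 5.25, 5.50 and 5.28 (-0.94 ± 0.17, adjusted p = 0.00172). Pou5f1, the Oct4 gene, differed by -0.01 ± 0.06 (13.66 and 13.76 against 13.74, 13.73 and 13.66), and Sox2 by -0.44 ± 0.15 (adjusted p = 0.0659), so that neither passed the test. The groups did not overlap for Otx2 and Nanog, as for 50.2% of all genes, and overlapped for Pou5f1.

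Markers of cell types were read to check the label of differentiating stem cells. All 5 pluripotent markers and all 6 streak and mesoderm markers were well above background on every array, as were all 6 cardiac progenitor markers. Of the 5 pluripotent markers Nanog fell, and their median log2 (fold change) was -0.405. Their summed linear signal, to which a bright probe such as that of Pou5f1 contributes most, was 13579 and 14488 with DMSO and 13319 to 14093 with MeOH eluate. That of the streak and mesoderm markers was 3861 and 3873 against 1933 to 2034, and Mixl1 alone made up most of this difference. Of these 6 markers 3 fell (T, Eomes and Mixl1), while Mesp1, Kdr and Pdgfra did not pass. The median log2 (fold change) of the 6 was -0.425. The cardiomyocyte genes Myh6 and Myh7 did not pass the filter on background, so the reporter's own promoter gene could not be followed.

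Of the other classes, none of 4 endothelial, 5 blood or 3 measured neuroectoderm markers passed the test in either direction. Of 3 endoderm markers Sox17 and Foxa2 fell (-0.65 and -0.71; Sox17 was at 0.07 in the mean of its probes) and Afp did not pass, of 3 neural crest markers Tfap2a and Foxd3 fell, of 3 trophoblast markers Cdx2 and Krt7 fell, and of 3 fibroblast markers Col1a1 and Col1a2 fell and Thy1 rose. The part of these shifts in the falls described above was not tested.

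Cardiac genes showed both directions. Of 23 cardiac progenitor factors 5 fell and 3 rose (34.8%, against 17% of all genes and 37.7% of the genes of any list). Gata6, a factor of endoderm and early heart, read 9.72 and 9.89 with DMSO and 7.91, 8.06 and 8.06 with MeOH eluate (-1.79 ± 0.14, a 3.47-fold fall), Tbx2 5.6 and 5.63 against 4.14, 4.35 and 4.25, and Fgf10, a ligand of the second heart field, fell as given above. Nkx2-6 rose 2.50-fold on its brightest probe, from 4.73 and 4.70 to 6.08, 5.90 and 6.14. Its 2 kept probes read 1.32 and 0.56, and 1 of them passed the threshold. Isl1, the factor of the second heart field, rose from 6.18 and 6.07 to 6.50, 6.72 and 6.81 (0.55 ± 0.13, adjusted p = 0.01). Gata4 did not pass the test (-0.11 ± 0.13, adjusted p = 0.629).

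Of 28 sarcomere genes 4 rose and 4 fell (28.6%, against 17% of all genes), but no fall passed without MeOH replicate 3. The median was -0.02, and it was -0.03 without DMSO replicate 1 and 0.01 without DMSO replicate 2. Myl7, the light chain of atrial myosin, rose 2.06-fold from 7.65 and 8.01 to 8.85, 9.03 and 8.74 (1.05 ± 0.16). Myl1 rose 3.13-fold on its brightest probe, from 6.20 and 6.19 to 7.68, 7.87 and 7.98. The 3 kept probes of Myl1 ranged from -0.55 to 1.65, and 2 of them rose past the threshold. Tnnt2 (-0.14) and Actn2 (-0.06) did not pass. At 24 h the effect on Myl7 was -2.02 ± 0.16, opposite to that at 6 h, and the difference of the 2 effects was -3.06 (adjusted p = 1.65e-06). Lmo1, a LIM-only cofactor known from T-cell leukaemia and neuroblastoma, fell from 11.88 and 11.99 to 9.98, 10.01 and 9.90 at 6 h (-1.97 ± 0.08) and by 1.87 at 24 h, and these effects did not differ past the threshold (0.10 ± 0.12, adjusted p = 0.681).

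Genes of the cholesterol synthesis list rose almost without exception. These genes are controlled by the factor SREBP2, which is released when sterols in the endoplasmic reticulum run low. Of 24 measured, 21 rose and none fell at adjusted p under 0.05 (87.5%, against 8.67% of all genes that rose), with a median of 0.63. Hmgcs1, the synthase of an early step of the pathway, read 12.42 and 12.58 with DMSO and 13.54, 13.52 and 13.74 with MeOH eluate (1.11 ± 0.07, adjusted p = 1.2e-07). The isomerase Idi1 read 8.06 and 8.06 against 9.0, 9.11 and 9.14 (1.02 ± 0.08) and the demethylation enzyme Msmo1 12.71 and 12.80 against 13.77, 13.72 and 13.80 (1.01 ± 0.05).

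The SREBP retention factor Insig1 rose (0.96 ± 0.12), as did Srebf2 itself, by 0.17 ± 0.05 (adjusted p = 0.0242). All MeOH cultures exceeded both DMSO cultures in each of the genes named here, as in 25.6% of all genes. The 3 members that did not pass were Fdps, Ebp and Tm7sf2. The sterol response element TCACNCCAC occurred on either strand in 1 of 14 promoters of the called members, that of Hmgcs1, against 1.55% of tested genes. It is shown for that reason (GRCm38.p6, chr13:119690189-119690247, plus strand, match in capitals):
Hmgcs1: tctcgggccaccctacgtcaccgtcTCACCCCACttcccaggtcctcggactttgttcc

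Targets of the hypoxia-inducible factor also rose at 6 h. Of 23 measured, 13 rose and none fell (56.5%, against 17% of all genes and 37.7% of the genes of any list). The median was 0.37. Bnip3, a mitophagy receptor, read 10.20 and 10.86 with DMSO and 11.94, 12.09 and 12.09 with MeOH eluate (1.51 ± 0.21, adjusted p = 0.000196). Ndrg1, a stress-responsive gene, read 9.41 and 9.78 against 10.76, 10.84 and 10.79 (1.20 ± 0.13), and the vasodilator peptide gene Adm 6.53 and 7.11 against 8.03, 7.96 and 8.03 (1.19 ± 0.15). DMSO replicate 1 was the lower of the DMSO cultures for all 3, and both lay below every MeOH culture, as in 25.6% of all genes. Without DMSO replicate 1, 6 members of the list passed the test. Vegfa, the angiogenic growth factor, did not pass (-0.11), and Pfkfb3, an activator of glycolysis, rose by 0.90 ± 0.13.

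Glycolytic genes moved less, with 9 of 18 risen and none fallen and a median of 0.17. This is 50%, against 17% of all genes and 37.7% of the genes of any list. The platelet phosphofructokinase Pfkp rose by 0.64 ± 0.08, the glucose transporter Slc2a1 by 0.51 ± 0.07 and the lactate dehydrogenase Ldha by 0.35. Without DMSO replicate 1, 4 members passed and the median was 0.10.

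The letters ACGTG, the core of the hypoxia response element, occurred on either strand in 9 of the 10 hypoxia genes that rose and have a promoter in the table. The share was 25.2% of the tested genes with a promoter. A match of CACGTG, the E-box, contains this core. The letters GCGTG occurred in 10 of the same 10, against 45.1% of tested genes, so the excess was not particular to ACGTG. These genes were listed as targets of the hypoxia-inducible factor, so their share is no independent evidence. The following stretches upstream of the transcription start are shown because these genes rose together, with matches in capitals (GRCm38.p6, minus strand except P4ha2 and P4ha1). In the order of the lines they lie at chr7:138909584-138909639, chr10:59951928-59951982, chr2:11553960-11554014, chr8:124949293-124949347, chr14:45318606-45318660, chr11:54100821-54100875 and chr10:59323255-59323295.
Bnip3: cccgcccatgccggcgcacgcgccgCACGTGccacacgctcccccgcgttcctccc
Ddit4: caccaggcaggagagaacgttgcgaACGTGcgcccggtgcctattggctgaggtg
Pfkfb3: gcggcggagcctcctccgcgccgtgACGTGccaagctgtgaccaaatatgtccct
Egln1: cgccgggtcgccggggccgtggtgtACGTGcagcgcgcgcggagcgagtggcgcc
Ero1a: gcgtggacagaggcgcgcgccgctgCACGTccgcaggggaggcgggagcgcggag
P4ha2: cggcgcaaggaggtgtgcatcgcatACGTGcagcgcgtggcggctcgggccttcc
P4ha1: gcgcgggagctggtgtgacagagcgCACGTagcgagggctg

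The hypoxia targets had a different response at 24 h. The median effect of MeOH eluate on the 23 genes was -0.39 at 24 h, where 13 had fallen and 3 had risen against the DMSO cultures of that time. The effect at 24 h was lower than that at 6 h for 14 genes and higher for 1, Bhlhe40, at adjusted p under 0.05 of the difference, against 7.76% of all genes in either direction. Bnip3 was at -0.68 ± 0.21 at 24 h, a difference of -2.19 from the effect at 6 h (adjusted p = 0.000254), and Egln1, the oxygen-sensing prolyl hydroxylase, went from 0.36 ± 0.10 to -0.86 ± 0.10 (difference -1.23, adjusted p = 9e-05). For cholesterol synthesis the median was 0.20 at 24 h, with 13 risen and none fallen, and the effect was lower at 24 h for 13 of 24 genes. The arrays of each time point were on a slide of their own, so that slide and time cannot be told apart.

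**Figure D4:**
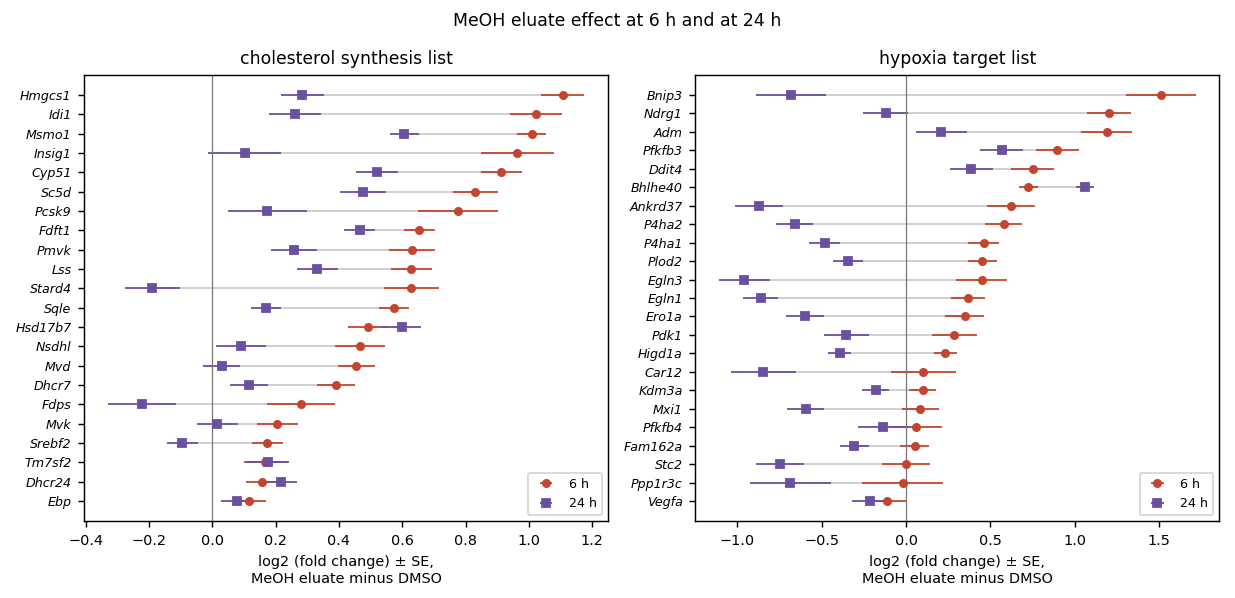
The x axis gives the log2 (fold change) ± SE of MeOH eluate against DMSO at 6 h (circles) and at 24 h (squares) for 22 of the 24 cholesterol synthesis genes (left) and the 23 hypoxia targets (right). Most cholesterol genes lie right of 0 at both times, and most hypoxia targets lie right of 0 at 6 h and left of 0 at 24 h.

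Inflammatory and immediate early genes rose as well. The shares called below stand beside 17% of all genes and 37.7% of the genes of any list. Of 23 targets of NF-kB 12 rose and Irf1 fell (56.5%, median 0.41), the latter not without DMSO replicate 1. Besides Ccl2, the chemokine genes Cxcl10 (8.84 and 9.16 against 10.34, 10.56 and 10.55, 1.48 ± 0.15) and Cxcl1 (5.77 and 5.90 against 7.13, 7.19 and 7.14, 1.32 ± 0.13) rose, and so did the feedback inhibitors Tnfaip3 (1.05 ± 0.11) and Nfkbia (0.83 ± 0.08) and the cytokine Tnf (0.70). None of these groups overlapped, against 50.2% of all genes without overlap. Ifit3, an interferon-induced gene, fell as given above.

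Of 31 immediate early genes 14 rose and Myc fell (48.4%, against 17% of all genes and 37.7% of the genes of any list). The median was 0.30. The largest rises were those of Jund (11.59 and 11.78 against 12.82, 12.77 and 12.70, 1.08 ± 0.07), Klf10 (1.02 ± 0.06) and Klf6 (1.02 ± 0.06), all transcription factors, followed by the phosphatase Dusp1 (0.93). Fos and Egr1, the classical first responders to serum, differed by 0.02 ± 0.15 and -0.01 ± 0.10 and did not pass. Of 29 targets of p53 11 rose and 4 fell (51.7%, median 0.12; 2 falls without DMSO replicate 2), with the pro-apoptotic gene Bbc3 at 0.67 and the cell cycle inhibitor Cdkn1a at 0.33. Of 23 antioxidant targets of NRF2 8 rose and 1 fell, with the largest rise in the sulfiredoxin gene Srxn1 (0.94). This is 39.1%, near the 37.7% of the genes of any list. Without MeOH replicate 3 there were 6 rises. The median was 0.14, and it was 0.10 without DMSO replicate 1.

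**Figure D5:**
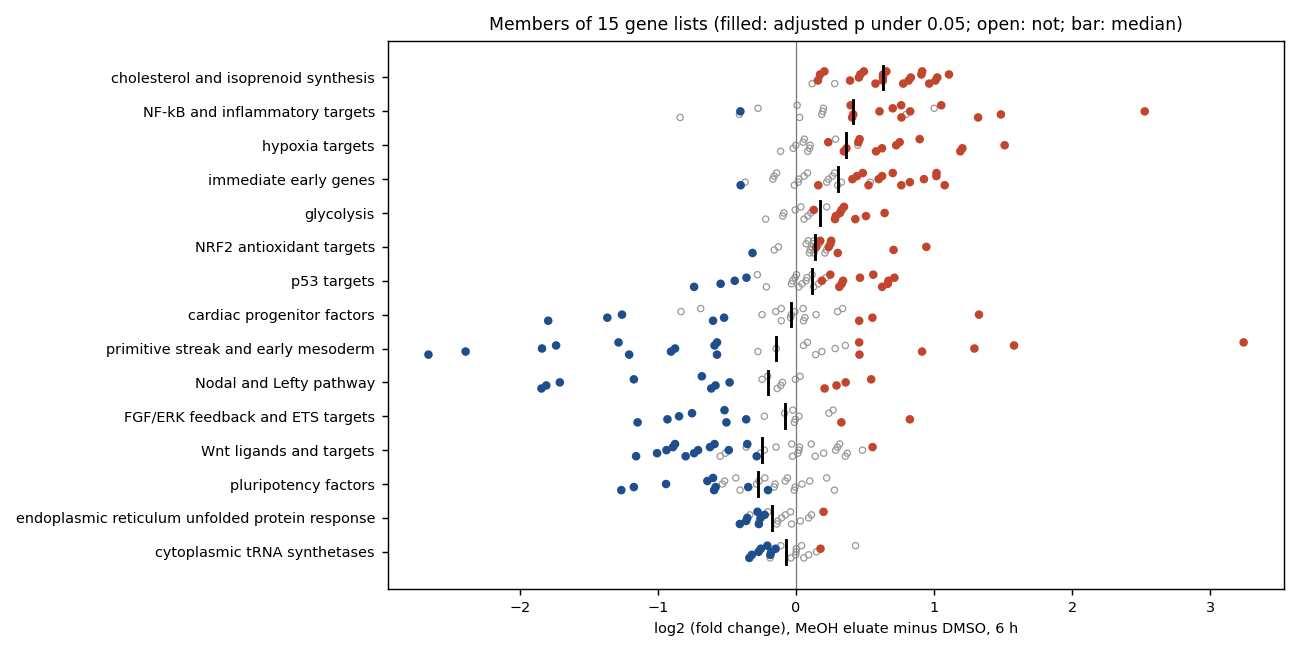
Each point is a gene of 1 of 15 lists, placed by its log2 (fold change) with MeOH eluate at 6 h, filled where the adjusted p was under 0.05 and open where it was not, and black bars are list medians. The cholesterol list lies almost wholly to the right, with a median of 0.63, and the streak list reaches from -2.66 to 3.24.

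Lists of protein synthesis and folding held small changes. The shares in this paragraph stand beside 17% of all genes, 20.8% of genes with a symbol and 37.7% of the genes of any list. Of 20 genes of the unfolded protein response 7 fell and 1 rose (40%, median -0.17), and of 20 cytoplasmic tRNA synthetases 8 fell and 1 rose (45%, median -0.07, and -0.12 without DMSO replicate 2), all by less than 1.5-fold. Of the 7 falls 1 passed without DMSO replicate 2 and 4 without DMSO replicate 1 or MeOH replicate 1, with medians of -0.15, -0.20 and -0.18, and of the 8 falls 1 passed without DMSO replicate 1, 4 without DMSO replicate 2 and 5 without MeOH replicate 3, with medians of -0.07, -0.12 and -0.05. Of 19 heat shock chaperones 5 rose and 5 fell (52.6%, median -0.03), but 3 and 2 without DMSO replicate 1 and 3 and 3 without DMSO replicate 2, and the largest change was the rise of the small chaperone Hspb8 (1.01 ± 0.10). Of 27 genes of the ATF4 response 7 fell and 4 rose (40.7%, and 3 rises without MeOH replicate 2 or 3). The median was -0.03, and it was -0.08 without DMSO replicate 1. Chac1, which degrades glutathione, was down from 9.05 and 8.90 to 7.54, 7.49 and 7.48 (-1.47 ± 0.12) and Cebpb, a bZIP factor, up by 1.06. Of 38 cell cycle and replication genes 10 fell and 3 rose (34.2%), but 4 and 1 without DMSO replicate 2 and 6 and 1 without DMSO replicate 1. Shares near the 17% of all genes were found for ion channels (6 of 33, 18.2%, and 3 without DMSO replicate 1), the TGF-beta and activin family (4 of 23, 17.4%) and the Bcl2 family (3 of 19, 15.8%).

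Among the 18 genes that the study itself names for 6 h, which were picked on these samples and are no independent evidence, 7 rose and 6 fell. The study asked for a 2-fold change at p under 0.05 with both WS1442 and MeOH eluate. The counts here are for MeOH eluate alone at adjusted p under 0.05 and any fold. Of the 18 genes 4 rises and 5 falls exceeded 2-fold. Besides Foxc2 and Myl1 the rises included Bhlhe41, a clock-related repressor, with 4.37 and 4.36 against 6.28, 6.17 and 6.32 (1.89 ± 0.14), Myo6, Mapkapk3 and Casp4, the last below background on all 5 arrays. Besides Lzts1, Lefty1 and Foxq1 the falls comprised Adamts9, a matrix protease, with 7.25 and 7.61 against 6.18, 6.15 and 6.42 (-1.18 ± 0.14), Ablim1 and Lox, the last with 1 of 3 MeOH arrays above background. Arhgef2 did not pass on its brightest probe (0.13), while its other probe read -1.03 and passed.

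The response to 0.25 mg/ml WS1442 was set beside that to 0.1 mg/ml MeOH eluate, bearing in mind that the doses differ and that both share the DMSO cultures. Lzts1 changed by -3.45 with MeOH eluate and by -1.27 with WS1442, Gsc by -2.66 and -0.98, Mixl1 by -2.39 and -0.99, and Foxc2 by 3.24 and 1.85. T changed by -1.28 and -0.29, Nodal by -0.68 and 0.00, and Foxf1 by 1.29 and 1.20. Hmgcs1 changed by 1.11 and 0.82, and Bnip3 by 1.51 and 0.95. The direct test of MeOH eluate against WS1442, which does not use the DMSO cultures, passed for 12.1% of all genes. It passed for 19 of the 30 genes with the largest changes, but these were chosen by the same MeOH cultures, so the count is a description only.

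By that test the MeOH cultures were lower than the WS1442 cultures for Lzts1 (-2.18 ± 0.05, adjusted p = 7.09e-12), Gsc (-1.68, adjusted p = 7.15e-07), Mixl1 (-1.40, adjusted p = 1.09e-08) and T (-1.0, adjusted p = 2.92e-05), and higher for Foxc2 (1.38, adjusted p = 2.89e-06). In the streak list 12 of 25 genes were lower and 4 higher with MeOH eluate than with WS1442. The test did not pass for Foxf1 (0.09, adjusted p = 0.66), Gfra3 (0.48, adjusted p = 0.0963) or Bnip3 (0.56, adjusted p = 0.0625). Of the cholesterol genes 8 of 24 were higher with MeOH eluate and none lower.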

How the data were processed

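RNA was hybridised to 1-colour Agilent mouse arrays, 1 culture per array, with 62912 spots (61473 gene spots, none saturated). The intensity values are the scanner's processed signals, background-subtracted by Agilent's Feature Extraction before the authors deposited them; the file headers name mm9. A second table that the authors deposited holds intensities on a linear scale with the same median (23.7) on all 16 arrays; each column correlated best with its own array (Spearman 0.998 or more), and it served as an alternative. The spots of a probe were averaged, log2 signals were quantile normalized, and 36718 of 60273 probes passed the filter, which asked that all arrays in 1 or more of the groups read the probe well above background. The brightest probe stood for its gene. Names came from RefSeq where an accession or symbol matched (31064 probes by accession). Without a match the name in the array file was kept (17192 probes). The 16 arrays were fitted as 6 group means with limma 3.58.1 (R 4.3.3, trended eBayes) and Benjamini-Hochberg adjustment over 29229 genes. On simulated data with independent normal noise and changes of 2-fold or more, 170 of 200 changed genes were recovered and 10 unchanged genes were called. Smaller changes, which most of the called genes had, were not simulated.

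Where no array of a group was above background, the fold is a bound against the lowest signal above background. The genes described are the 15 largest rises and 15 largest falls by log2 (fold change) among genes with a symbol, adjusted p under 0.05, all arrays of the higher group well above background and no overlap between groups; list members past 2-fold, with the smallest adjusted p or with a defining role; the genes the study names for 6 h; and cell type markers. A few genes under this rule are not reported here. Genes and lists were chosen with earlier results of these data known. Promoters are RefSeq's (GRCm38.p6, 250 bases before to 50 after the start), searched on both strands. All 8 arrays of 6 h shared 1 slide, so time point and slide cannot be told apart. The precision is limited by the number of arrays. Alternatives comprised scaling, background correction, filters, probe choice, arrays fitted, array weights, the replicate number as a block, each replicate left out and the methods' test.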

Additional observations from a re-analysis of the deposited data

Results flagged for a closer look

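In 13 of the 30 genes that lead the response at 6 h, MeOH eluate had an effect at 24 h that differed from that at 6 h (limma, adjusted p under 0.05 of the difference). These genes were chosen for their effects at 6 h, which enter the difference, so a high count is built in and the p-values share that choice. The difference is the log2 (fold change) at 24 h minus that at 6 h. Among genes that rose at 6 h it was -2.31 for Gfra3 (adjusted p = 0.000143), -1.80 for Foxc2 (adjusted p = 7.25e-06), -1.80 for Rnu11 (adjusted p = 0.000596) and -1.08 for Ccl2 (adjusted p = 0.0115). For Stac the fitted value was -2.42 (adjusted p = 0.0292), whose size is not measured because no DMSO array of 6 h was well above background. Gfra3 was at 0.22 at 24 h (adjusted p = 0.549), while Foxc2 and Ccl2 were still higher, at 1.44 and 1.45.

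Among genes that fell at 6 h the difference was 0.61 for Evx1 (adjusted p = 0.00814), 1.1 for Foxq1 (adjusted p = 0.000233), 1.20 for Mixl1 (adjusted p = 3.28e-06), 1.77 for Cer1 (adjusted p = 0.00871; 1 of 3 MeOH arrays of 6 h above background), 1.87 for Gsc (adjusted p = 8.4e-06) and 2.15 for Lefty1 (adjusted p = 2.8e-07). It was 2.30 for Lzts1 (adjusted p = 2.24e-09). For Ifit3 the fitted value was 3.31 (adjusted p = 0.000182), whose size is not measured because no MeOH array of 6 h was well above background. Lefty1 was higher than DMSO at 24 h, by 0.31, whereas Lzts1, Mixl1 and Gsc were still lower, at -1.15, -1.20 and -0.79.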

How the results depend on the processing

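Normexp background correction with the added offset of 50 left 68 genes past 2-fold (71 at unadjusted p) in place of 425 (615). It lowered the median absolute log2 (fold change) of the 30 genes from 2.19 to 1.19, and all 425 genes kept their direction. Without a filter 1040 genes passed at unadjusted p, and with both groups well above background 253 (284 at unadjusted p), with 16 of the 30 genes tested there. The methods' t-test after Benjamini-Hochberg gave 4 genes past 2-fold, 8 at any fold, 3 list members, 2 of the 30 genes, and 5 of the 30 between MeOH eluate and WS1442; unadjusted it gave 463 past 2-fold. Leaving out 1 replicate gave 261 to 494 genes past 2-fold, 487 to 820 at unadjusted p, 1976 to 4591 at any fold, 227 to 346 of 374 list members and 20 to 24 of the 30 genes; the lowest counts past 2-fold, at any fold and of list members came without DMSO replicate 1, and MeOH replicate 3 lowered the count at any fold to 3199. A fit without a DMSO sample assumes that the other varies like the other groups. With the replicate block 353 genes passed 2-fold, 3402 passed at any fold and 25 of the 30 genes passed; same-numbered DMSO and MeOH samples correlated at 0.0127 and -0.0824 in their deviations, and WS1442 and MeOH samples at 0.3054, -0.0551 and -0.0211. Not every pair was over 0.1. The deviations of the 2 DMSO cultures mirror each other, so this check cannot decide whether same-numbered samples were paired. Rises were 44.8% of 2-fold calls under 75th percentile scaling, 59.6% in a fit of 5 arrays, 66.7% without DMSO replicate 2 and 52.0% as reported. Under the limma alternatives 18 of the 30 genes passed wherever tested and none changed sign; of 363 other genes Nfe2l2 (-0.14), Sema6d (0.13) and Sox17 (0.07) changed sign with the mean of their probes. The difference between times could not be fitted with 8 or 5 arrays.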
